A study of Mus musculus with 15 samples.

Results

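The proteins of respiratory complexes II to V are encoded in the nucleus by the genes described here, as measured in ventricles of mice that had lost Acsl1, a gene whose enzyme joins long fatty acids to coenzyme A before mitochondria burn them. A gene was taken when its array symbol was Sdha, Sdhb, Sdhc, Sdhd or Cyc1, or began with Uqcr, Atp5 or Cox followed by a digit between 4 and 8. The rule found 48 of the 19532 genes measured, on 64 probes: 4 of complex II, 9 of complex III, 18 of complex IV and 17 of complex V. It also took Cox7a2l, a factor in the joining of complexes that is not a fixed subunit of complex IV, and it left out the subunits encoded in mitochondrial DNA, which were not analysed here.

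The series compared Acsl1H-/- hearts 2 weeks (n = 3) and 10 weeks (n = 4) after tamoxifen with littermate Acsl1flox/flox control hearts 2 weeks (n = 4) and 10 weeks (n = 4) after it. All were male mice of the strain given as C57Bl/J6, treated from an age of 6 to 8 weeks with tamoxifen at 75 mg/kg for 4 days, so both genotypes carried the flox alleles and the drug. The sources used here name neither the recombinase nor the promoter that drives it, and no group is labelled as carrying a recombinase without the flox alleles, so effects of the lost gene and of the recombinase cannot be told apart. No value of Acsl1 was analysed here, and the loss of the gene was therefore not checked.

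Each heart sample shared an array with RNA of whole neonatal mice of a mixed 129Sv and C57BL/6 background. The deposited values were taken as log2 ratios of heart over that RNA, which is the likely but not the settled direction. With the opposite sign every value called higher below would be lower and every value called lower would be higher. The median of every probe over the 15 arrays was 0, so the values compare arrays within a gene and hold no expression level. For the same reason the labelled tissue could not be checked by the level of its markers, and no gene can be ranked above another by level. In whole ventricles, fewer cells of a type and less RNA in each cell cannot be told apart.

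Complex II, succinate dehydrogenase, passes electrons from succinate to coenzyme Q. Complex III passes them on to cytochrome c, complex IV gives them to oxygen, and complex V, the ATP synthase, uses the proton gradient that complexes III and IV help to build. Several small subunits of complex IV exist in a form made in heart and skeletal muscle and a form made in most tissues, and a few have a form made mainly in testis.

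At 10 weeks the nuclear genes of complexes II to V as a whole stood where the average gene stood. Single subunits of complex IV lay on opposite sides, but none on the higher side passed the threshold given below. Opposite sides were not particular to complex IV. Atp5o (-0.26) and Atp5g2 (0.08) of complex V, and Ndufb11 (-0.19) and Ndufb2 (0.21) of complex I, lay apart as well, and none of them passed. Over the 48 genes the median difference, knockout minus control, was -0.02 on the log2 scale, and it was also -0.02 over all 19532 genes. Of the 48, 22 lay above 0 and 26 below, and 53.5% of all genes lay below 0. With limma, at a Benjamini-Hochberg adjusted p under 0.05 over all genes, 1 of the 48 was called, Cox7a1, which was lower. Over all genes the called share was 0.686%, with 0.358% called higher and 0.328% called lower.

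At 2 weeks none of the 48 genes was called, but most lay slightly lower in knockout hearts. The median difference was -0.09, against -0.02 over all genes, and 39 of the 48 lay below 0, against 53.7% of all genes. At an unadjusted p under 0.05, limma gave 2 genes that were lower and none that was higher, and the shares over all genes were 3.63% lower and 3.62% higher. At an adjusted p under 0.05 the called share over all genes was 0.00512%, which is 1 gene.

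These genes were among the quieter ones on the arrays. The residual SD, the spread of replicates around their group mean on the log2 scale, had a median of 0.10 over the 48 genes and 0.31 over all genes. It was 0.0912 over 43 genes of complex I, so the low spread was not particular to complexes II to V. Differences smaller than 0.25 in size were found for 45 of the 48 genes at 2 weeks (93.8%) and for 42 at 10 weeks (87.5%), against 64.7% and 65.3% of all genes and 95.3% of the complex I genes at both times. The 95% confidence interval of the difference lay wholly between -0.5 and 0.5 for 43 genes at 2 weeks and for 41 at 10 weeks. It lay wholly between -0.25 and 0.25 for 6 genes at 2 weeks and 17 at 10 weeks, so shifts below that size were not resolved for most. Cox6b2 had the largest residual SD, 0.66, followed by Cox7c at 0.57 and Uqcrq at 0.44, and Atp5g2 had the smallest, 0.045. Cox7c, a small subunit of complex IV, was named after its values were seen.

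**Figure D1:**
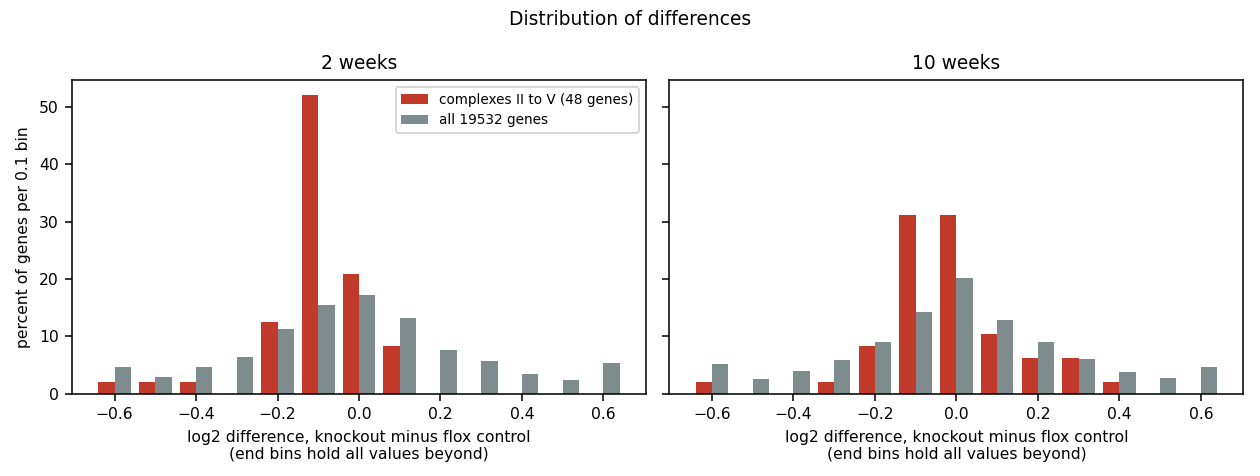
Percent of genes (vertical axis) in bins of 0.1 of the log2 difference, knockout minus flox control (horizontal axis), at 2 weeks (left) and 10 weeks (right), for the 48 genes of complexes II to V (red) and all 19532 genes (grey). The 48 genes sit in a narrower peak than all genes at both times, and at 2 weeks 25 of them fall in the bin from -0.15 to -0.05.

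Complex II had no called gene at either time, and its 4 genes lay close to 0 at 2 weeks. Averaged over the 4 genes on each array, the value was 0.06 ± 0.04 in knockout hearts at 2 weeks (SD, n = 3) and 0.05 ± 0.14 in controls (n = 4). At 10 weeks it was -0.08 ± 0.08 in knockout hearts and 0.03 ± 0.08 in controls (SD, n = 4 each), with overlapping arrays. All 4 differences were below 0 at 10 weeks, with a median of -0.08.

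Sdhc, one of the subunits that anchor the complex in the membrane, read -0.23, -0.22, 0.17 and -0.19 in knockout hearts at 10 weeks and 0.24, 0.12, -0.0008 and -0.02 in controls. Knockout replicate 3 lay inside the range of the controls, and the other 3 knockout arrays lay below it. The difference was -0.20 ± 0.12 (SE, limma adjusted p = 0.639). Sdhd, the other anchor, differed by -0.08 ± 0.08, and Sdhb, the iron-sulfur subunit, by -0.07 ± 0.09. Sdha, the flavoprotein that oxidises succinate, differed by -0.07 ± 0.19. Its 3 probes gave between -0.19 and 0.13 at 10 weeks and between -0.22 and 0.64 at 2 weeks, so its mean joins probes that did not move together.

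Complex III had no called gene at either time. The mean of its 9 genes was -0.03 ± 0.09 in knockout hearts at 2 weeks (SD, n = 3) and 0.09 ± 0.11 in controls (n = 4). At 10 weeks it was -0.03 ± 0.06 in knockout hearts and 0.02 ± 0.03 in controls (SD, n = 4 each). The arrays of the groups overlapped at both times. At 10 weeks 2 of the 9 genes were lower at an unadjusted p under 0.05, Uqcrb and Uqcrh, where 5.21% of all genes were lower and 4.75% were higher.

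Uqcrb, a small subunit near the coenzyme Q site, read -0.05, -0.16, -0.01 and -0.13 in knockout hearts at 10 weeks and 0.07, 0.08, 0.20 and 0.11 in controls. Every knockout array lay below every control array. The difference was -0.20 ± 0.08 (SE, limma adjusted p = 0.392). Uqcrh, the hinge protein at the contact with cytochrome c1, read -0.25, -0.26, -0.12 and -0.24 in knockout hearts and 0.03, -0.11, 0.11 and 0.00 in controls. The groups did not overlap, but knockout replicate 3 and control replicate 2 almost met. The difference was -0.22 ± 0.10 (adjusted p = 0.479), and the 2 probes of Uqcrh gave -0.25 and -0.20.

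The catalytic and core subunits of complex III differed by at most 0.11 in size at 10 weeks. Cyc1, cytochrome c1, differed by 0.03 ± 0.08, and Uqcrc1, a large core protein, by -0.02 ± 0.08. Uqcrfs1, the Rieske iron-sulfur protein, differed by -0.11 ± 0.09. Uqcr10, another small subunit, was -0.14 ± 0.10 at 2 weeks and 0.13 ± 0.09 at 10 weeks, and the difference between these effects had an adjusted p of 0.757. Uqcrq, a further small subunit, differed by -0.36 ± 0.31 at 2 weeks, where control replicate 4 stood at 1.24 and the other control arrays at or below 0.07. Its 2 probes gave -0.17 ± 0.11 and -0.55 ± 0.63 at 2 weeks and did not move together (correlation 0.0119).

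Complex IV held the 3 smallest p-values of the 48 genes at 10 weeks. The mean of its 18 genes per array was -0.10 ± 0.02 in knockout hearts at 2 weeks (SD, n = 3) and 0.06 ± 0.08 in controls (n = 4), without overlap. At 10 weeks it was 0.02 ± 0.02 in knockout hearts and -0.04 ± 0.08 in controls (SD, n = 4 each), with overlap. Without the testis forms Cox6b2, Cox7b2 and Cox8c, the 2-week means were -0.02 ± 0.06 in knockout hearts and 0.04 ± 0.07 in controls, and their arrays overlapped.

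**Figure D2:**
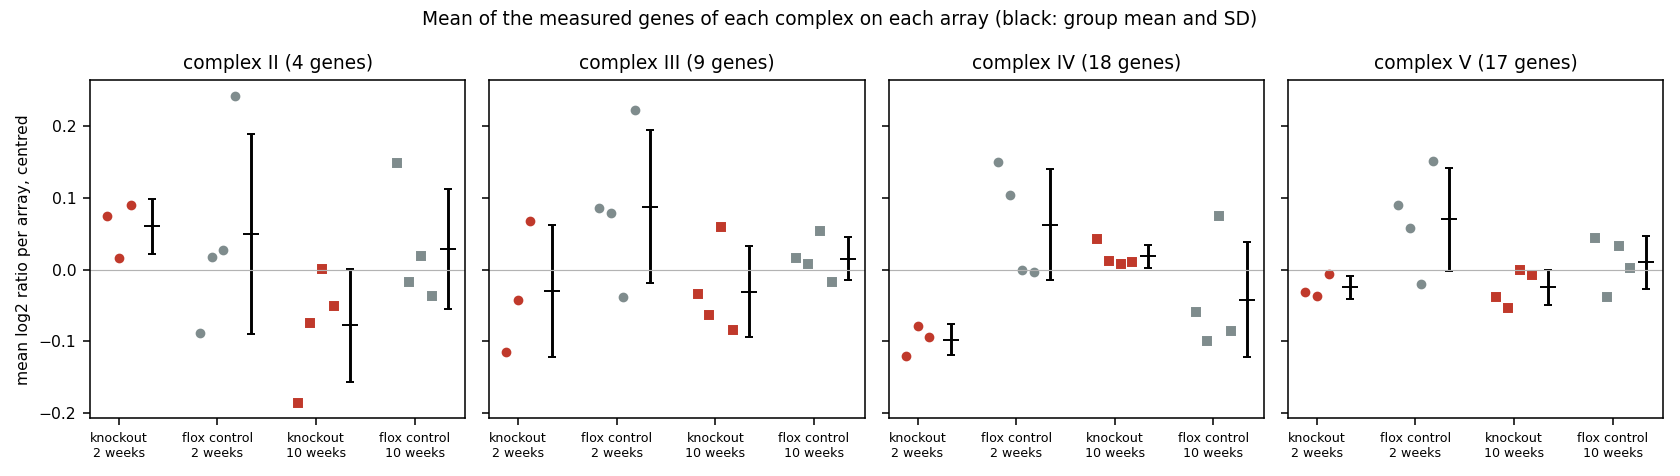
Mean log2 ratio, centred per probe, over the measured genes of complexes II, III, IV and V (vertical axis) on each array, by group (horizontal axis), with red for knockout and grey for flox control hearts and black bars for group mean and SD. In complex IV the 3 knockout arrays of 2 weeks lie between -0.12 and -0.08, below the 4 control arrays, and at 10 weeks the groups overlap in all 4 complexes.

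Cox7a1 is the heart and muscle form of a small subunit that sits where complex IV monomers and complexes meet. It read -0.44, -0.49, -0.43 and -0.55 in knockout hearts at 10 weeks, against 0.16, 0.02, 0.17 and 0.00 in controls. All 4 knockout arrays lay far below all 4 control arrays, with means of -0.48 ± 0.06 and 0.09 ± 0.09 (SD, n = 4 each). Cox7a1 fell, with a difference of -0.56 ± 0.10 (SE, 95% confidence interval -0.78 to -0.35, limma adjusted p = 0.0236), which is a ratio of 0.676. It was measured by 1 probe. The call was lost on the arrays of 10 weeks alone (adjusted p = 0.0509), with a block for replicate numbers (0.0609), against a 1.2-fold threshold (0.640), and without 7 of the 8 arrays of 10 weeks taken singly (up to 0.0738), while the difference stayed between -0.59 and -0.53. Over the alternatives other than the fold threshold its adjusted p ran from 0.0174 to 0.0738.

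The general form, Cox7a2, read 0.00, 0.11, 0.03 and 0.06 in knockout hearts at 10 weeks and -0.04, -0.07, 0.17 and -0.05 in controls. Its groups overlapped, because control replicate 3 stood above every knockout array. The difference was 0.05 ± 0.08 (95% confidence interval -0.13 to 0.22, adjusted p = 0.923). Taken within each array, Cox7a1 minus Cox7a2 was -0.53 ± 0.09 in knockout hearts and 0.09 ± 0.09 in controls (SD, n = 4 each), and the knockout arrays, between -0.61 and -0.44, lay apart from the control arrays, between -0.01 and 0.20. At 2 weeks the same quantity was -0.03 ± 0.15 in knockout hearts (n = 3) and 0.03 ± 0.10 in controls (n = 4). Cox7a2l differed by 0.08 ± 0.11 at 10 weeks.

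Cox6a2, the heart and muscle form of subunit VIa, read 0.28, 0.38, 0.22 and 0.36 in knockout hearts at 10 weeks and -0.09, -0.08, 0.03 and -0.02 in controls. Every knockout array lay above every control array. The difference was 0.35 ± 0.08 (SE, 95% confidence interval 0.17 to 0.52), a ratio of 1.27, and it missed the threshold with an adjusted p of 0.0795. At 2 weeks Cox6a2 read -0.11, -0.08 and -0.06 in knockout hearts and 0.10, 0.00, -0.04 and 0.19 in controls, so the knockout arrays were the lower ones there, with a difference of -0.14 ± 0.09. The difference between the effects at 10 and 2 weeks was 0.49 ± 0.12 with an unadjusted p of 0.00112 and an adjusted p of 0.399.

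Cox6a1, the general form of the same subunit, read 0.20, 0.22, 0.11 and 0.25 in knockout hearts at 10 weeks and -0.19, -0.12, -0.02 and -0.12 in controls. These groups did not overlap either, and the difference was 0.31 ± 0.11 (SE, adjusted p = 0.307). Both forms of subunit VIa thus had every knockout array above every control array at 10 weeks. Cox6a2 minus Cox6a1 within each array was 0.12 ± 0.03 in knockout hearts and 0.07 ± 0.03 in controls at 10 weeks (SD, n = 4 each), and these values overlapped.

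Cox8a, the general form of the smallest subunit, read 0.18, 0.25, 0.05 and 0.12 in knockout hearts at 10 weeks and -0.16, -0.11, -0.13 and -0.05 in controls. All knockout arrays were above all control arrays, and the difference was 0.26 ± 0.08 (SE, adjusted p = 0.228). Cox8b, its heart and muscle form, read 0.17, 0.16, 0.25 and 0.27 in knockout hearts and -0.01, -0.08, 0.26 and -0.05 in controls. Control replicate 3 lay among the knockout arrays of Cox8b, and the difference was 0.18 ± 0.09 (adjusted p = 0.556). Cox8b minus Cox8a was 0.06 ± 0.13 in knockout hearts and 0.14 ± 0.18 in controls at 10 weeks, with overlap. At 2 weeks it was -0.12 ± 0.06 in knockout hearts (n = 3) and 0.03 ± 0.03 in controls (n = 4), without overlap.

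**Figure D3:**
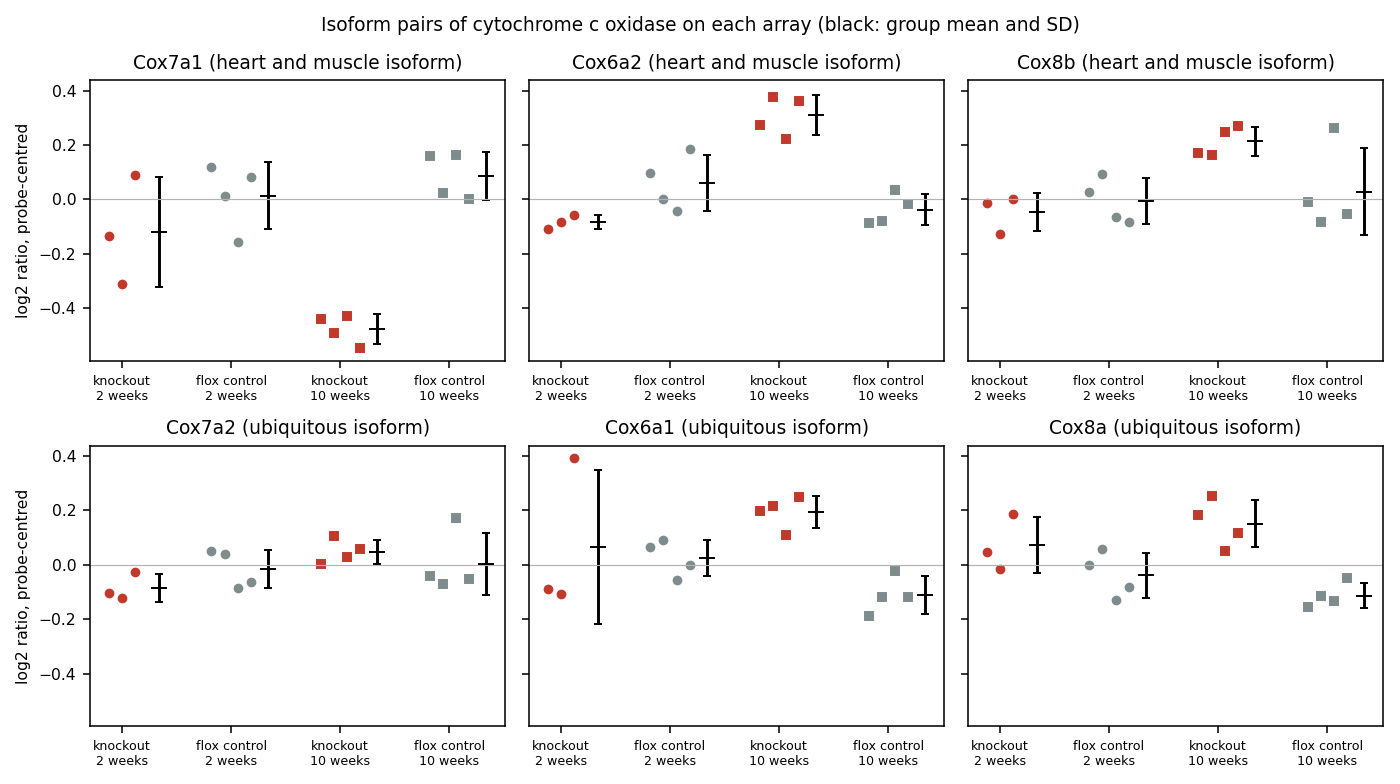
Log2 ratio, centred per probe (vertical axis), of the heart and muscle form (top) and the general form (bottom) of 3 subunits of complex IV on each array, by group (horizontal axis), with red for knockout and grey for flox control hearts and black bars for group mean and SD. At 10 weeks the knockout arrays lie below the controls for Cox7a1, above them for Cox6a2, Cox6a1 and Cox8a, and among them for Cox7a2.

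The remaining forms of complex IV subunits differed little or varied widely. Cox4i1 and Cox4i2, the general and the lung form of the subunit that carries the ATP-sensing site, differed by -0.06 ± 0.08 and -0.08 ± 0.08 at 10 weeks. Cox6b1, the general form of subunit VIb, differed by -0.05 ± 0.08. Its testis form, Cox6b2, read -1.40, -0.29 and -2.36 in knockout hearts at 2 weeks and 0.12, 0.04, -0.70 and 0.16 in controls. Knockout replicate 2 lay inside the range of the controls, and the difference was -1.25 ± 0.47 (SE, unadjusted p = 0.0182, adjusted p = 0.623). At 10 weeks Cox6b2 differed by 0.40 ± 0.43, with control replicate 4 at -1.51 and the other arrays of that time at or above -0.33.

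Cox7b, the general form of subunit VIIb, read -0.02, -0.14 and -0.09 in knockout hearts at 2 weeks and 0.17, 0.15, 0.04 and 0.14 in controls. The groups did not overlap, and the difference was -0.21 ± 0.09 (SE, unadjusted p = 0.0338, adjusted p = 0.651). At 10 weeks it was -0.03 ± 0.08. Cox7b2, its testis form, differed by 0.02 ± 0.10 at 10 weeks, and Cox8c, the testis form of the smallest subunit, by 0.20 ± 0.24. Cox6c, a small subunit of the membrane part, read -0.13, -0.14, -0.11 and -0.08 in knockout hearts at 10 weeks and 0.08, -0.04, 0.13 and 0.00 in controls, again without overlap. Its difference was -0.16 ± 0.09 (adjusted p = 0.656).

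Cox6a2 had no upstream sequence in the set used and could not be shown. Upstream sequences of other complex IV genes that stood on opposite sides at 10 weeks are shown with that of Cox7a2, which stood near 0. Each is the 250 bases before the annotated gene start in RefSeq (GRCm38.p6), written 5′ to 3′ on the strand of the gene, and capitals mark matches to any of the 5 motifs searched on both strands. The motifs were CCGGAAG (GABP and other ETS factors), GCGCNTGCG (the core of the NRF1 motif), TNAAGGTCA (ERR), CCAAT (the CCAAT box) and the MEF2 motif with a core of A or T. The sequences lie at chr7:30183921-30184170 on the plus strand for Cox7a1, and on the minus strand at chr9:79759854-79760103 for Cox7a2, chr5:115348959-115349208 for Cox6a1 and chr19:7217617-7217866 for Cox8a.
Cox7a1: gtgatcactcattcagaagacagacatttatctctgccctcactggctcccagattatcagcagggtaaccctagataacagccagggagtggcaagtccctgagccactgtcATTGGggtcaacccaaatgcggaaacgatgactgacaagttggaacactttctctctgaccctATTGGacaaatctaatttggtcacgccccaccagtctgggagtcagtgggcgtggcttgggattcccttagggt
Cox7a2: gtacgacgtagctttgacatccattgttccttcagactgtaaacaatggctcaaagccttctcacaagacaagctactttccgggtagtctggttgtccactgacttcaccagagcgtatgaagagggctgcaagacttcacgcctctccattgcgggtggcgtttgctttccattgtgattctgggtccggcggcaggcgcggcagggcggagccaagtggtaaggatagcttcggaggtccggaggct
Cox6a1: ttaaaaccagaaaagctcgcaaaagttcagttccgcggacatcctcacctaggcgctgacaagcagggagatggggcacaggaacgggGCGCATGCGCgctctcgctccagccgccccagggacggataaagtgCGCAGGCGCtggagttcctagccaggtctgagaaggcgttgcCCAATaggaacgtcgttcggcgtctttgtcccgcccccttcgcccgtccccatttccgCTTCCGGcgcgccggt
Cox8a: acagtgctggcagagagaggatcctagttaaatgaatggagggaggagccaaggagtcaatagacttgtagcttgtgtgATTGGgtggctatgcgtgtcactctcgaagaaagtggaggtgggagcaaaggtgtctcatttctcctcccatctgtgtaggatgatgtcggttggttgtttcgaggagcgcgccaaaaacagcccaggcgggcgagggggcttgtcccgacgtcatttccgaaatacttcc
Cox7a1 held 2 matches, both to CCAAT on the opposite strand. Cox6a1 held the NRF1 core in 2 places, one of them on both strands with overlap, and 1 match each to CCAAT and CCGGAAG. Cox8a held 1 match to CCAAT and Cox7a2 none of the 5 motifs, which says only that these letters are not in that window.

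An upstream sequence was found for 36 of the 48 genes. CCGGAAG was in 9 of the 36 (25%), against 11% of the 15534 measured genes with an upstream sequence. GCGCNTGCG was in 9 (25%) against 8.78%, and CCAAT in 20 (55.6%) against 39.3%. TNAAGGTCA was in 1 (2.78%) against 1.06%, and the MEF2 motif was in none of the 36 against 0.521%. Among the 39 complex I genes with a sequence, CCGGAAG was in 10.3%, GCGCNTGCG in 23.1% and CCAAT in 33.3%. A match is a description of the letters and not of a bound site.

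Complex V had no called gene at either time. The mean of its 17 genes was -0.02 ± 0.02 in knockout hearts at 2 weeks (SD, n = 3) and 0.07 ± 0.07 in controls (n = 4), and -0.02 ± 0.02 in knockout hearts and 0.01 ± 0.04 in controls at 10 weeks (n = 4 each). Its median difference was -0.11 at 2 weeks, with 15 of 17 genes below 0, and -0.02 at 10 weeks, with 10 of 17 below 0. Without single arrays the 10-week median ran from -0.055 to 0.0044, above 0 without knockout replicate 3 or without control replicate 1 of that time.

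Atp5o, the protein of the stalk that holds the catalytic head in place, had the smallest p of complex V at both times. It read -0.26, -0.28, -0.13 and -0.21 in knockout hearts at 10 weeks and 0.10, 0.00, 0.10 and -0.02 in controls. Every knockout array lay below every control array, and the difference was -0.26 ± 0.09 (SE, unadjusted p = 0.0106, adjusted p = 0.272). At 2 weeks it read -0.12, -0.13 and 0.14 in knockout hearts and 0.23, 0.14, 0.05 and 0.23 in controls. Knockout replicate 3 was within the control range there, and the difference was -0.20 ± 0.10 (adjusted p = 0.701).

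No gene of the catalytic head or shaft of the ATP synthase was called. Atp5a1 and Atp5b, its alpha and beta subunits, differed by -0.13 ± 0.12 and -0.12 ± 0.12 at 10 weeks. The 3 probes of Atp5a1 gave between -0.30 and -0.01 and did not all move together (lowest correlation -0.206). Those of Atp5b gave between -0.17 and -0.07 (lowest correlation 0.693). Atp5c1, the gamma subunit of the turning shaft, differed by -0.12 ± 0.09. Atp5e, the epsilon subunit of the shaft, differed by -0.18 ± 0.10 at 2 weeks and 0.05 ± 0.09 at 10 weeks. Atp5k, a membrane subunit, differed by -0.14 ± 0.09 at 2 weeks, and Atp5md, another small membrane protein of the complex, by -0.12 ± 0.08 at 10 weeks. Atp5d differed by -0.13 ± 0.10 at 2 weeks and 0.09 ± 0.09 at 10 weeks. Atp5mpl differed by -0.08 ± 0.09 and 0.09 ± 0.08 at these times. The difference between effects had a limma adjusted p of 0.794 for Atp5d and 0.808 for Atp5mpl.

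Atp5g1, Atp5g2 and Atp5g3 encode the same mature c subunit of the membrane ring. They differed by 0.05 ± 0.07, 0.08 ± 0.07 and -0.02 ± 0.15 at 10 weeks. Atp5g2 read 0.03, 0.07, 0.07 and 0.08 in knockout hearts and -0.01, -0.05, -0.02 and 0.00 in controls, a separation without overlap that came to an adjusted p of 0.800.

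**Figure D4:**
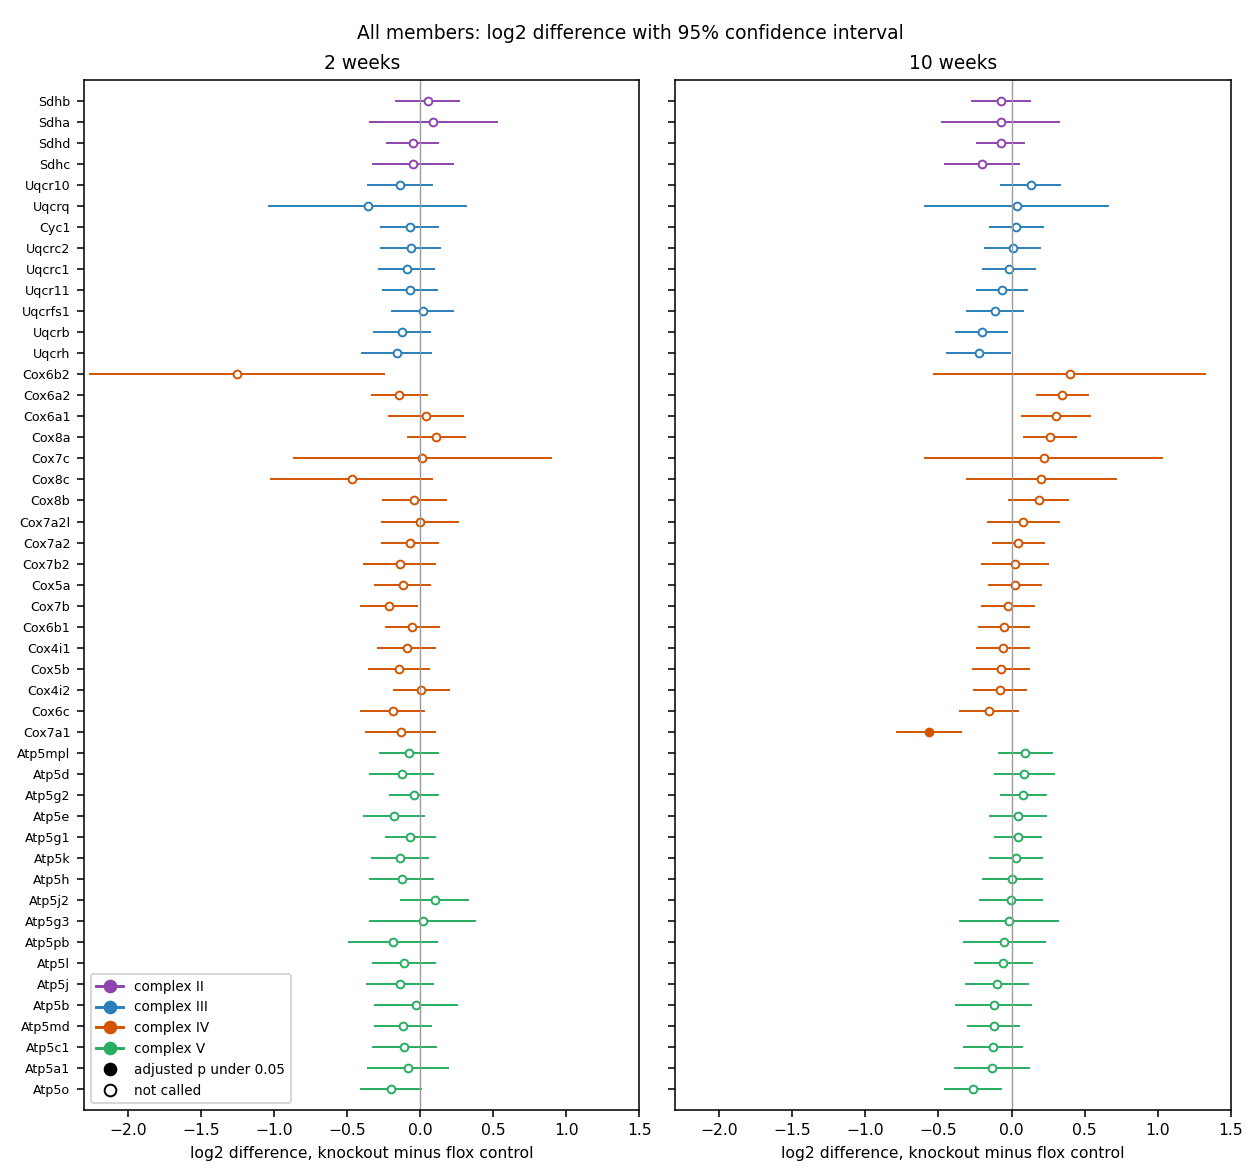
Log2 difference, knockout minus flox control (horizontal axis), with its 95% confidence interval, for each of the 48 genes (vertical axis), at 2 weeks (left) and 10 weeks (right), coloured by complex. Cox7a1 at 10 weeks, at -0.56, is the only filled point, which stands for an adjusted p under 0.05, and the widest intervals belong to Cox6b2, Cox7c and Uqcrq.

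Across the 4 complexes at 10 weeks, 9 genes had groups that did not overlap. Atp5g2, Cox6a1, Cox6a2 and Cox8a were higher on every knockout array (3.24% of all genes were), and Atp5o, Cox6c, Cox7a1, Uqcrb and Uqcrh were lower on every knockout array (3.36%). At 2 weeks 2 genes did not overlap, Cox6a2 and Cox7b, both lower on every knockout array, where 4.52% of all genes were lower without overlap and 4.26% higher. At an unadjusted p under 0.05, 3 of the 48 were higher at 10 weeks and 4 were lower, where 4.75% of all genes were higher and 5.21% lower.

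The small downward shift at 2 weeks was spread over complexes III, IV and V. Genes below 0 numbered 8 of 9 in complex III, 14 of 18 in complex IV and 15 of 17 in complex V, and 2 of 4 in complex II. The mean of all 48 genes was -0.07, -0.05 and -0.02 on the knockout arrays and 0.10, 0.08, -0.01 and 0.12 on the control arrays. The groups did not overlap, although knockout replicate 3 and control replicate 3 nearly met. Without Cox6b2, Cox7b2 and Cox8c the means were -0.04, -0.05 and 0.03 in knockout hearts and 0.08, 0.08, -0.02 and 0.12 in controls, which overlap, while 36 of the 45 genes left still lay below 0. With 48 genes on the same arrays, these counts are not independent observations, since the mean correlation between 2 of the genes around their group means was 0.136, against 0.16 for the complex I genes and 0.0035 for all genes.

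Marker genes of cell types were also read. The lists for smooth muscle, leukocytes and skeletal muscle were read too and are not described. At 2 weeks the mean of 7 of 7 endothelial markers was 0.15 ± 0.14 in knockout hearts (SD, n = 3). In controls it was -0.02 ± 0.10 (n = 4), with overlap, and 5 of the 7 differences lay above 0. The mean of 9 of 9 fibroblast markers ranged from 0.21 to 0.76 over the knockout arrays and from -0.13 to 0.26 over the controls, with overlap, and 8 of the 9 differences lay above 0. The mean of the 3 of 4 red blood cell markers that were measured ranged from -0.69 to -0.40 in knockout hearts and from -0.32 to 0.16 in controls, without overlap. The mean of 10 of 10 cardiomyocyte markers was 0.01 ± 0.05 in knockout hearts (SD, n = 3) and -0.004 ± 0.16 in controls (n = 4). No marker of these lists was called at 2 weeks, and their part in the shift of the respiratory genes was not tested. Control replicate 1 of 2 weeks averaged 2.82 over 5 of 5 markers of atrium and conduction, while the other controls of that time lay between -0.80 and 0.75. Without that array 41 of the 48 respiratory genes lay below 0 at 2 weeks, with a median of -0.09.

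At 10 weeks the cardiomyocyte markers averaged -0.08 ± 0.07 in knockout hearts and 0.01 ± 0.08 in controls (SD, n = 4 each), with overlap. The mean of the 4 of 5 adipocyte markers measured ranged from -0.004 to 0.58 in knockout hearts and from -0.31 to 0.03 in controls. These arrays overlapped, and 1 of the 4 markers was called higher, where 0.358% of all genes were. At 2 weeks 3 of these 4 differences lay below 0. The mean of the 9 fibroblast markers at 10 weeks ranged from -0.09 to 0.15 in knockout hearts and from -0.21 to -0.07 in controls. It overlapped as well, and 7 of the 9 differences lay above 0. The red blood cell markers averaged -0.06 ± 0.10 in knockout hearts and 0.11 ± 0.11 in controls at 10 weeks, with overlap. The part of these lists in the differences of complex IV genes was not tested.

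The knockout effects at 10 and 2 weeks did not differ by the test of that difference for any of the 48 genes, with limma giving 0 called genes of 19532. At an unadjusted p under 0.05, Cox6a2 and Cox6b2 were higher among the 48 genes, where 3.44% of all genes were, and Cox7a1 was lower, where 3.38% were. The Cox7a1 effects, -0.13 ± 0.11 at 2 weeks and -0.56 ± 0.10 at 10 weeks, differed by -0.43 ± 0.15 (adjusted p = 0.610), so a difference between the times was not shown. The median of the 48 differences between effects was 0.07, with 32 above 0 against 51.1% of all genes.

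Within a genotype, 10 weeks against 2 weeks gave no called gene among the 48. In knockout hearts 4 of the 48 were higher and 1 lower at an unadjusted p under 0.05, while 5.19% and 6% of all genes were, and 0.389% of all genes were called. Without overlap, 8 of the 48 were higher at 10 weeks on every array and 2 were lower, against 5.78% and 7.66% of all genes. The lower one at an unadjusted p under 0.05 was Cox7a1, at -0.36 ± 0.11 (adjusted p = 0.224), and Cox6a2 was 0.39 higher (adjusted p = 0.0825). In controls 36 of the 48 lay below 0 with a median of -0.07, against 54.1% of all genes, and none of the 19532 genes was called by limma. At an unadjusted p under 0.05 in controls 4.17% of all genes passed, and of the 48 only Cox8c did, at -0.55 (unadjusted p = 0.0354). These comparisons share arrays with the knockout effects above.

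Complex I, the entry point for electrons from NADH, had 43 genes measured and none called at either time. Its median difference was -0.06 at 2 weeks, with 36 of 43 below 0, and -0.02 at 10 weeks, with 25 of 43 below 0. Ndufs8, an iron-sulfur subunit, differed by -0.33 ± 0.10 at 10 weeks (adjusted p = 0.225). Ndufb2 and Ndufb11, small subunits of the membrane arm, differed by 0.21 ± 0.08 and -0.19 ± 0.08.

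Among 34 of 36 assembly factors of complexes II to V none was called at 10 weeks, with 17 above and 17 below 0. At an unadjusted p under 0.05, 4 were higher and 1 was lower, and for these and the lists that follow the shares over all genes at 10 weeks were 4.75% higher and 5.21% lower. Surf1, a factor in building complex IV, differed by 0.37 ± 0.12 (SE, adjusted p = 0.228), and Coa5, another complex IV factor, by 0.35 ± 0.10 (adjusted p = 0.169). Bcs1l, which inserts the Rieske protein into complex III, differed by 0.30 ± 0.10 (adjusted p = 0.266).

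For electron carriers and coenzyme Q, 17 genes were measured from 20 listed symbols, some of which name the same gene. None of the 17 was called at 10 weeks, and 2 were higher at an unadjusted p under 0.05. Coq7, a hydroxylase of coenzyme Q synthesis, was 0.43 ± 0.09 higher in knockout hearts than in controls at 10 weeks (adjusted p = 0.0587). Within knockout hearts Coq7 rose, by 0.58 ± 0.10 at 10 weeks over 2 weeks (adjusted p = 0.0224). In controls the same change was 0.08 ± 0.09. The difference between the knockout effects was 0.50 ± 0.13 (limma adjusted p = 0.484), so a change over time particular to knockout hearts was not shown. Etfb, part of the flavoprotein that carries electrons from fatty acid oxidation, differed by 0.20 ± 0.08 at 10 weeks, and Coq6 by -0.37 ± 0.17.

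For mitochondrial DNA upkeep and transcription, 10 genes were measured from 11 listed symbols, which include an older and a newer name of the same gene. None of the 10 was called at 10 weeks, and 1 was lower at an unadjusted p under 0.05. Polrmt, the mitochondrial RNA polymerase, differed by -0.46 ± 0.19 (adjusted p = 0.401), Mterf3 by -0.47 ± 0.22 and Polg, the mitochondrial DNA polymerase, by 0.33 ± 0.16. Of 15 nuclear regulators 1 was called at 10 weeks, Ppara, the fatty acid receptor, which fell, with a difference of -0.95 ± 0.16 (adjusted p = 0.0162). Yy1 differed by -0.55 ± 0.15 (adjusted p = 0.163) and Myc by 0.71 ± 0.26 (adjusted p = 0.320).

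For inhibitors and transporters linked to the chain, 7 genes were measured from 10 listed symbols, some of which name the same gene. None of the 7 was called at 10 weeks, and 2 were higher at an unadjusted p under 0.05. Ucp3, an inner membrane uncoupling protein of muscle, differed by 1.24 ± 0.30 (SE, adjusted p = 0.0976). Slc25a5, an ADP/ATP carrier that hands ATP out of the mitochondrion, differed by 0.27 ± 0.09 at 2 weeks (adjusted p = 0.611) and 0.33 ± 0.09 at 10 weeks (adjusted p = 0.133). Its groups did not overlap at either time. Higd1a, a small protein tied to complex IV, differed by -0.39 ± 0.38 at 10 weeks.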

How the data were processed

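Ventricle RNA (500 ng) labelled with Cy5 and whole mouse RNA labelled with Cy3 were hybridised together to Agilent arrays of 2 colours, per the labels' protocols. The authors deposited a table of 41267 probes on 15 arrays, taken here as log2 ratios. Background correction, normalisation, log base and direction of the ratio are not stated in the sources used here. No value was missing, values ran from -4.96 to 8.40, and array medians ran from -0.0207 to 0.0325. No signal over background was used, so dim probes were not set apart from bright ones.

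Symbols came from the platform annotation, which is dated. There were 32664 probes with 1 symbol, 45 with several, 8465 with none and 93 control spots. Probes of 1 symbol were averaged into 19532 genes. Of the 48 genes described, 37 had 1 probe and 11 several. Upstream sequences came from RefSeq (GRCm38.p6).

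limma 3.58.1 in R 4.3.3 (lmFit, eBayes) fitted 4 group means to all 15 arrays, with 11 residual degrees of freedom and 2.07 added by moderation. Tests were two-sided, with Benjamini-Hochberg adjustment over all genes of a contrast. The same steps were also run on simulated data. There the genes varied independently and the added changes were larger than most differences described here, so that run says nothing about such small differences. A difference is given with its standard error and a group mean with its standard deviation. Replicates are labelled as biological.

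The genes and lists were chosen with earlier results of these data known. Genes were named when called, when among those with the smallest p of their complex (4 at 10 weeks, 3 at 2 weeks or for the difference between effects), as isoform sets, or as core subunits. Of each other list, called genes and up to 3 with the smallest p were named. Alternatives covered scaling, choice of probe, updated symbols, arrays fitted, array weights, moderation, a fold threshold, a replicate block and leaving out each array.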

Additional observations from a re-analysis of the deposited data

Results flagged for a closer look

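Within groups of 4 arrays, 1 array stood far from the others in 9 of 156 tests of genes and complex means, and chance gives about 1 in 20. In knockout hearts at 10 weeks replicate 3 stood apart for Atp5e, at -0.0091 against 0.085 to 0.094, for Sdhc, at 0.17 against -0.23 to -0.19, and for Uqcrh, at -0.12 against -0.26 to -0.24. In the same group replicate 2 stood apart for Cox8c, at 0.58 against -0.05 to -0.02, and replicate 1 for the mean of complex IV, at 0.044 against 0.008 to 0.012. In control hearts at 10 weeks replicate 3 stood apart for Cox7a2, at 0.17 against -0.07 to -0.04, and for Cox7b, at 0.20 against -0.04 to 0. In control hearts at 2 weeks replicate 3 stood apart for Atp5j, a peripheral stalk protein, at -0.039 against 0.22 to 0.26, and for Cox6b2, at -0.70 against 0.04 to 0.16. By array, knockout replicate 3 of 10 weeks held 3 of the 9, and control replicate 3 held 2 at each time.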

How the results depend on the processing

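Cox7a1 at 10 weeks stayed lower under every alternative that was run, but its call depended on the arrays and the fit, as given above. The number of the 48 genes called at 10 weeks was 1 in the reported fit and 0 on the arrays of 10 weeks alone, with a replicate block or against a 1.2-fold threshold, and it was 0 to 1 when each array was left out. Over all genes, 134 calls at 10 weeks became 89 when each gene was read from its most variable probe, 50 on the arrays of 10 weeks alone, 71 with the replicate block and 33 against the 1.2-fold threshold, and ranged from 61 to 142 without single arrays. The 1 call at 2 weeks became 3 with the most variable probe and 0 with quantile normalisation, the replicate block or the fold threshold (0 to 10 without single arrays). For the difference between effects, 0 calls became 1 with the most variable probe (0 to 4 without single arrays). For 10 against 2 weeks in knockout hearts, 76 calls became 47 with quantile normalisation, 31 with the replicate block and 25 against the fold threshold (41 to 89 without single arrays), and in controls the count was 0 to 1. Over the difference between effects, the median of the 48 genes ranged from 0.028 to 0.11 and that of complex V from 0.017 to 0.11 without single arrays. At 10 weeks the median of the 48 genes ran from -0.038 to -0.0019 and that of complex III from -0.067 to 0.0051 without single arrays, and the median of the 48 was 0.0079 with quantile normalisation, so its sign was not fixed. Whether the replicate numbers pair the arrays was not settled. Over 21 pairs of the same number the correlation of deviations ran from -0.034 to 0.123. The highest value joined control replicate 3 of 2 weeks and control replicate 3 of 10 weeks. Among the arrays of other groups, 8 of 15 arrays correlated best with one of their own number. The count to be met without any pairing was not computed, so the 8 cannot be judged large or small. At 2 weeks 37 to 42 of the 48 genes lay below 0 without single arrays. A filter on dim probes and another background correction were not run, because the value table holds neither. The causes of these changes were not tested.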
